A study of Mus musculus with 12 samples.

Results

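Heparan sulfate is a long sugar chain that hangs from core proteins on the cell surface and in the matrix around cells. The genes described here are 34 of the 51912 gene rows counted in neonatal mouse cortex, namely the enzymes that build and sulfate the chain, the enzymes that trim it outside the cell, and the core proteins that carry it. They were chosen by function, with no threshold on a measured value, but with earlier results from the same libraries known, among them the dKO-N changes of Gpc5 and Hs3st3b1. Of these 34 genes, 30 had enough counts to be tested.

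RNA came from the cortex of mice at postnatal day 0 (P0), and the libraries fall into 3 groups of 4. In dKO-E, labelled H3.3 Emx1 dKO, Emx1-Cre deletes H3f3a and H3f3b, both of which encode the replication-independent histone H3.3. In dKO-N, labelled H3.3 Neurod6 dKO, Neurod6-Cre deletes the same pair of genes. The third group is labelled control, and neither the alleles and Cre status of these animals nor the strain is stated in the labels. Emx1-Cre acts in the progenitors of cortical excitatory neurons and glia, whereas Neurod6-Cre acts in excitatory neurons after their last division. Interneurons, microglia, vessels and meninges arise outside these lineages, so each library mixes targeted with untargeted cells, and fewer cells of a type cannot be told apart from less RNA per cell. Whether the libraries of a group are separate animals is not stated, so the p-values speak only for the spread among libraries, part of which may be technical.

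Heparan sulfate is made in the Golgi, where polymerases extend an alternating sugar chain and sulfotransferases then add sulfate at defined positions, in patches that differ between cells. The pattern of sulfates along the chain, 6-O and 3-O sulfates among them, shapes which growth factors, guidance cues and synaptic receptors bind. In the developing cortex such chains shape fibroblast growth factor signalling in progenitors, axon guidance and synapse formation. Glypicans are tethered to the membrane by a lipid anchor, syndecans span it, and agrin and perlecan are secreted.

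Each dKO-E library held 1452515 to 2503581 counts assigned to genes, each dKO-N library 722080 to 3502017 and each control 1974975 to 3083599. At these depths 3 counts correspond to 0.901 to 4.14 CPM (TMM-scaled counts relative to library size), the unit of all levels below. H3f3a was read at 22.9 to 30.04 CPM in dKO-E, at 22.1 to 37.8 CPM in dKO-N, and at 17.7, 117, 16.4 and 121 CPM in controls 1 to 4. The libraries labelled control 1 and control 3 thus go against their label at this gene. Without them the log2 fold change (log2FC) of H3f3a was -2.15 in dKO-E and -1.84 in dKO-N (adjusted p = 9.71e-12 and 1.34e-09), against -1.29 and -0.96 with them (adjusted p = 0.228 and 0.494). H3f3b was read at 167 to 180.1 CPM in dKO-E, at 111 to 146 CPM in dKO-N, and at 121, 76.7, 143 and 84.2 CPM in controls 1 to 4, so controls 1 and 3 lay in the dKO-N range here too. Its log2FC was 0.69 in dKO-E (adjusted p = 0.000707) and 0.16 in dKO-N (adjusted p = 0.583), and 1.10 and 0.57 without those controls (adjusted p = 2.04e-07 and 0.00749); the deleted part of each gene is not stated, so these reads may lie outside it. Counts of Y-linked genes were 1035 and 274 in dKO-E 3 and dKO-E 4 and at most 3 in the other libraries. Calls of named genes that changed without control 1 and control 3 are given without them too. For the heparan sulfate genes, calls between the knockouts and dKO-E calls of X-linked genes are also given without dKO-E 3 and dKO-E 4. Genes of the related lists are not given in that setting.

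In dKO-E against control, the 6-O-sulfotransferase Hs6st2, the 3-O-sulfotransferases Hs3st2 and Hs3st4, both extracellular sulfatases (Sulf1 and Sulf2) and the glypican Gpc5 fell. The glypicans Gpc3 and Gpc4, the N-sulfation enzyme Ndst4 and perlecan (Hspg2) rose. Of the 30 genes tested, 10 passed an adjusted p of 0.05, which is 33.3%, against 20.2% of all 11076 genes. Of these 10, 4 were higher and 6 lower, where 10.1% of all genes were higher and 10.1% lower. Fitted log2 fold changes ran from -2.03 to 1.98 with a median of -0.01, against 0.01 over all genes. In 10 of the 30 genes the 2 groups of libraries did not overlap, against 25.5% of all genes.

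In dKO-N against control, Hs6st2, Hs3st2, Sulf1 and Sulf2 fell, and Ndst3, Gpc3, Gpc4 and Gpc6 rose. With Gpc5 and Hs3st3b1 included, 10 of 30 genes passed the threshold, 5 higher and 5 lower, which is 33.3% against 11.3% of all genes (5.04% higher and 6.29% lower). The changes of Gpc5 and Hs3st3b1 in this comparison were already known when the genes were listed, so their dKO-N values are given as a description with no test, and nothing is read from the count. Log2 fold changes ran from -2.60 to 1.75 with a median of -0.09, against 0.01 over all genes. The groups did not overlap in 12 of the 30 genes, against 13% of all genes. Both comparisons use the same 4 control libraries, so their values are given side by side and are not independent of each other.

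**Figure D1:**
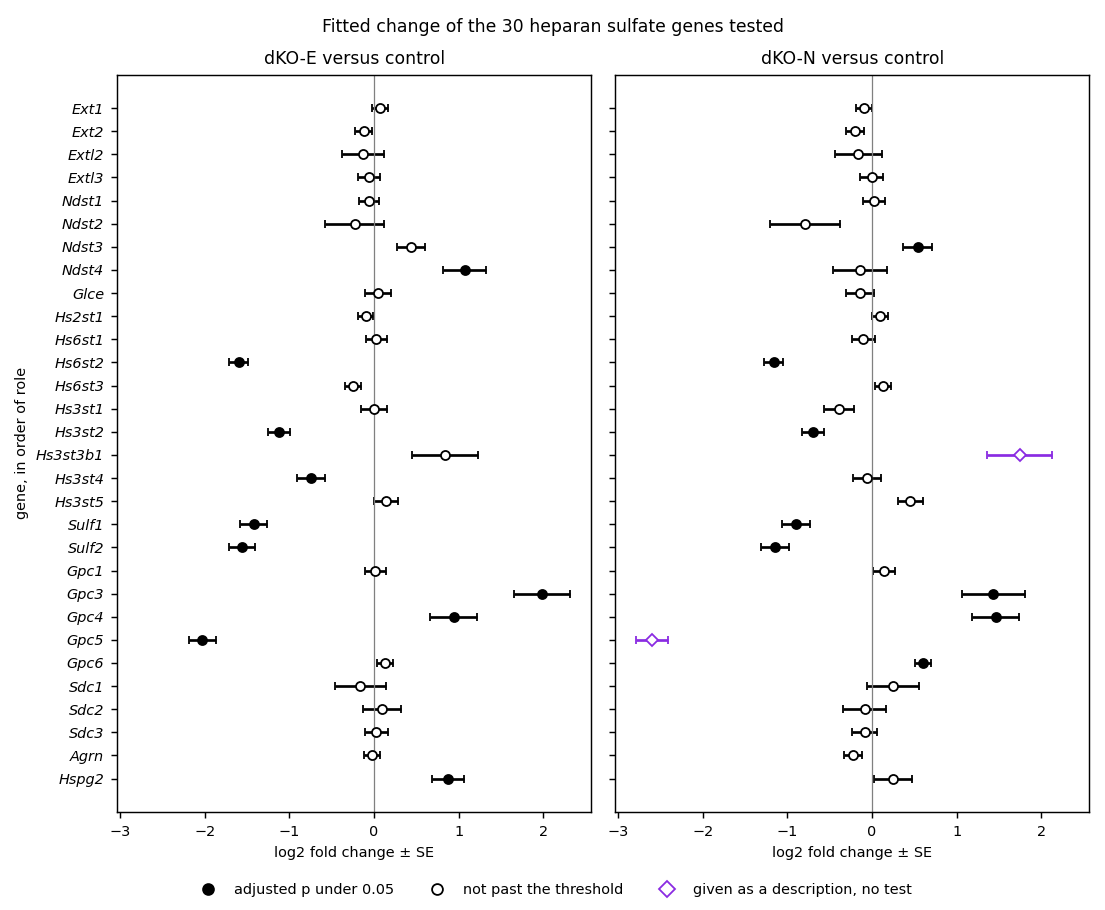
Fitted log2 fold change (x axis) with its standard error for each of the 30 genes tested (y axis, in order of role), for dKO-E versus control on the left and dKO-N versus control on the right. Filled points passed an adjusted p of 0.05, open points did not, and diamonds mark Hs3st3b1 and Gpc5 in dKO-N, given as a description; Hs6st2, Hs3st2, Sulf1 and Sulf2 lie left of 0 in both panels, Gpc3 and Gpc4 right of 0, and the chain polymerases and syndecans near 0.

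The machinery that starts and extends the chain did not pass the test in any comparison. Ext1 and Ext2 form the polymerase, Extl3 starts the chain, Extl2 can cap it, and Glce converts glucuronic to iduronic acid. None of these 5 tested genes was called by edgeR in dKO-E or dKO-N against control or between the knockouts, and the counts at an unadjusted p of 0.05 and by DESeq2 were also 0. Ext1 averaged 911 ± 101 CPM in dKO-E, 812 ± 95.2 CPM in dKO-N and 868 ± 27.2 CPM in controls (SD, n = 4 each). Its log2 fold change was 0.07 ± 0.09 (SE) in dKO-E and -0.10 ± 0.10 in dKO-N. Ext2 had log2 fold changes of -0.12 ± 0.10 in dKO-E and -0.21 ± 0.11 in dKO-N. Extl1 was too low to test, with 10, 6 and 15 counts summed over the dKO-E, dKO-N and control libraries.

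N-sulfation, the first sulfation step, is carried out by 4 NDST enzymes that remove an acetyl group and put sulfate in its place. Ndst1, the main form in most tissues, had log2 fold changes of -0.06 ± 0.12 in dKO-E and 0.02 ± 0.13 in dKO-N and was called in neither. Ndst4 (chromosome 3, 125404076 to 125728899, mm10) was read at 34.6, 17.8, 23.8 and 29.6 CPM in dKO-E, at 8.16, 21.4, 8.27 and 8.41 CPM in dKO-N and at 10.2, 7.99, 16.8 and 13.9 CPM in controls. All dKO-E libraries lay above all controls, while dKO-N overlapped controls. Ndst4 rose 2.10-fold in dKO-E (log2FC 1.07 ± 0.25, adjusted p = 0.00231), against -0.14 ± 0.32 in dKO-N (adjusted p = 0.856).

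Ndst3 (chromosome 3, 123526166 to 123690853) was read at 73.8, 85.1, 94.2 and 87.8 CPM in dKO-E, at 77.5, 67.1, 81.3 and 122 CPM in dKO-N and at 69.2, 49.0, 79.9 and 52.7 CPM in controls. Both knockouts overlapped controls, and dKO-N 4 was the highest library. Its log2 fold change was 0.44 ± 0.16 in dKO-E (adjusted p = 0.0651) and 0.54 ± 0.17 in dKO-N (adjusted p = 0.0437). The dKO-N call was lost without any 1 of control 1, 2 or 4, dKO-N 3 or 4, or dKO-E 2, 3 or 4 (adjusted p 0.0506 to 0.439), and the change was 0.23 without dKO-N 4. This call was also lost under DESeq2 (adjusted p = 0.0582), in a fit of the 2 groups alone, and without dKO-E 3 and dKO-E 4 together (adjusted p = 0.0716). Without control 1 and control 3 together, Ndst3 passed in both knockouts, at 0.75 in dKO-E (adjusted p = 0.00556) and 0.85 in dKO-N (adjusted p = 0.00359). The dKO-E value also passed with library totals, no filter on low counts, the replicate block, thinning or a fit of the 2 groups alone, and without control 3, dKO-N 2 or dKO-N 4 (adjusted p 0.00491 to 0.0362). Ndst2 had 39, 19 and 50 counts in dKO-E, dKO-N and control libraries, and its log2 fold changes of -0.23 ± 0.35 and -0.79 ± 0.42 in dKO-E and dKO-N did not pass the test.

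Among the enzymes that sulfate the 2-O and 6-O positions, Hs6st2 stood out. Hs2st1, the sole 2-O-sulfotransferase, had log2 fold changes of -0.10 ± 0.09 in dKO-E and 0.09 ± 0.09 in dKO-N, and Hs6st1 had 0.03 ± 0.12 and -0.10 ± 0.14; neither gene was called. Hs6st2 (chromosome X, 51387212 to 51681856) was read at 136, 174, 179 and 179 CPM in dKO-E, at 189, 187, 241 and 278 CPM in dKO-N and at 560, 531, 490 and 452 CPM in controls. The 3 groups did not overlap, with dKO-E lowest and controls highest. Hs6st2 fell 3.03-fold in dKO-E (log2FC -1.60 ± 0.11, adjusted p = 3.76e-13) and 2.24-fold in dKO-N (log2FC -1.16 ± 0.11, adjusted p = 1.9e-09).

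Hs6st3, the third 6-O-sulfotransferase (chromosome 14, 119138341 to 119869815), was read at 604, 636, 718 and 674 CPM in dKO-E, at 755, 838, 1050 and 784 CPM in dKO-N and at 801, 811, 797 and 713 CPM in controls. The libraries of dKO-E lay below all dKO-N libraries, and 3 of the 4 lay below every control. Against control its log2 fold change was -0.25 ± 0.10 in dKO-E (adjusted p = 0.0641) and 0.13 ± 0.10 in dKO-N (adjusted p = 0.465), so neither was called.

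The 3-O-sulfotransferases add the rarest sulfate. Of 5 tested, Hs3st2 and Hs3st4 were lower and none higher in dKO-E, where 10.1% of all genes were lower. In dKO-N, Hs3st3b1 being a description, Hs3st2 alone of the other 4 was called, and it was lower, as were 6.29% of all genes. Hs3st2 (chromosome 7, 121391859 to 121501770) was read at 52.3, 70.9, 74.6 and 66.0 CPM in dKO-E, at 109, 65.3, 78.6 and 100 CPM in dKO-N and at 168, 150, 130 and 131 CPM in controls. Each knockout lay below all controls. Hs3st2 fell 2.18-fold in dKO-E (log2FC -1.12 ± 0.13, adjusted p = 1.76e-08) and 1.63-fold in dKO-N (log2FC -0.70 ± 0.13, adjusted p = 0.000197). Exons of Hs3st2 overlap those of Gm36736 on the opposite strand, and whether counting used strand is not given.

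Hs3st4 (chromosome 7, 123982869 to 124398989) was read at 506, 799, 746 and 697 CPM in dKO-E, at 1048, 733, 1303 and 1319 CPM in dKO-N and at 1174, 1165, 1139 and 1128 CPM in controls. All dKO-E libraries were below the controls, whose 4 values lay close together, while the dKO-N libraries spread on both sides of them. Hs3st4 fell 1.67-fold in dKO-E (log2FC -0.74 ± 0.17, adjusted p = 0.00609), and was at -0.06 ± 0.17 in dKO-N (adjusted p = 0.885). Without control 1 and control 3 the dKO-E value was -0.74 with an adjusted p of 0.0661. Exons of Hs3st4 overlap those of Gm27040 on the opposite strand.

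Hs3st3b1 (chromosome 11, 63885792 to 63922290) was read at 9.80, 2.43, 8.60 and 8.39 CPM in dKO-E, at 13.6, 9.32, 22.1 and 11.7 CPM in dKO-N and at 3.53, 2.66, 3.02 and 6.72 CPM in controls. Every dKO-N library exceeded every control, and dKO-E overlapped both. The fitted values were 3.35-fold higher in dKO-N (log2FC 1.75 ± 0.38, 1.48 without control 1 and control 3), given as a description, and 1.79-fold in dKO-E (log2FC 0.84 ± 0.39, adjusted p = 0.135). Its counts are uncertain, since Hs3st3b1 and its neighbour Hs3st3a1 share an identical stretch of 401 bases in their transcripts, and how such reads were counted is not given. Hs3st3a1 itself was too low to test, with 6, 3 and 13 counts in dKO-E, dKO-N and control libraries.

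Hs3st5 averaged 260 ± 56.1 CPM in dKO-E, 319 ± 62.5 CPM in dKO-N and 236 ± 10.1 CPM in controls (SD, n = 4 each). Its dKO-N value of 0.45 ± 0.15 lay just outside the threshold (adjusted p = 0.0544) although all 4 libraries exceeded all controls, and it passed under DESeq2 (adjusted p = 0.0275). Hs3st1 had log2 fold changes of 0.00 ± 0.16 in dKO-E and -0.39 ± 0.18 in dKO-N and was called in neither.

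Sulf1 and Sulf2, which clip 6-O-sulfates from finished chains outside the cell, both fell in both knockouts. Sulf1 (chromosome 1, 12692277 to 12861192) was read at 17.0, 14.2, 21.5 and 21.3 CPM in dKO-E, at 34.01, 24.2, 23.4 and 25.8 CPM in dKO-N and at 50.9, 48.5, 47.1 and 51.7 CPM in controls. The 3 groups did not overlap. Sulf1 fell 2.68-fold in dKO-E (log2FC -1.42 ± 0.16, adjusted p = 8.91e-09) and 1.87-fold in dKO-N (log2FC -0.90 ± 0.17, adjusted p = 0.00013).

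Sulf2 (chromosome 2, 166073089 to 166155663) was read at 31.4, 25.5, 22.3 and 23.5 CPM in dKO-E, at 49.0, 34.5, 28.9 and 29.1 CPM in dKO-N and at 79.1, 87.9, 57.9 and 74.9 CPM in controls. Each knockout lay below all controls, and the knockouts overlapped each other. Sulf2 fell 2.95-fold in dKO-E (log2FC -1.56 ± 0.16, adjusted p = 6.18e-10) and 2.22-fold in dKO-N (log2FC -1.15 ± 0.16, adjusted p = 2.03e-06). Both sulfatases passed the threshold under every alternative and with each library left out. Exons of Sulf2 overlap those of Ncoa3 on the opposite strand.

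Of the 5 glypicans tested, Gpc3 and Gpc4 were higher and Gpc5 lower in dKO-E, where 10.1% of all genes were higher and 10.1% lower. In dKO-N, Gpc5 being a description, 3 of the other 4 were higher and none lower, against 5.04% of all genes higher. Gpc5 (chromosome 14, 115092215 to 116525179), which in the mouse takes part in synapse maturation, was read at 91.4, 83.1, 73.5 and 83.9 CPM in dKO-E, at 69.4, 68.1, 73.1 and 35.1 CPM in dKO-N and at 406, 350, 292 and 297 CPM in controls. Every knockout library lay far below the lowest control, and dKO-N 4 was the lowest of all. Gpc5 fell 4.08-fold in dKO-E (log2FC -2.03 ± 0.16, adjusted p = 6.37e-08). In dKO-N its fitted level was 6.06-fold lower (log2FC -2.60 ± 0.19, and -2.27 without dKO-N 4), given as a description. Exons of Gpc5 overlap those of Gm20713 on the opposite strand.

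Gpc6 (chromosome 14, 116925315 to 117976544), which astrocytes are known to secrete and which promotes excitatory synapses, was read at 835, 1053, 994 and 993 CPM in dKO-E, at 1244, 1291, 1387 and 1476 CPM in dKO-N and at 986, 892, 872 and 801 CPM in controls. All dKO-N libraries were above all others, and dKO-E overlapped controls. Gpc6 rose 1.52-fold in dKO-N (log2FC 0.61 ± 0.09, adjusted p = 8.12e-06) and was at 0.13 ± 0.09 in dKO-E (adjusted p = 0.373).

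Gpc3 (chromosome X, 52272426 to 52613950), a glypican that restrains growth and Hedgehog signalling, was read at 20.2, 12.97, 9.77 and 12.3 CPM in dKO-E, at 9.52, 8.39, 6.89 and 10.2 CPM in dKO-N and at 2.12, 2.13, 5.62 and 3.62 CPM in controls. Both knockouts lay above all controls. Gpc3 rose 3.96-fold in dKO-E (log2FC 1.98 ± 0.33, adjusted p = 1.88e-05) and 2.70-fold in dKO-N (log2FC 1.43 ± 0.37, adjusted p = 0.00776). The totals behind these values were 110, 55 and 30 counts in dKO-E, dKO-N and control libraries, and the dKO-N call was lost without dKO-N 4 (log2FC 1.28, adjusted p = 0.0703).

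Gpc4 (chromosome X, 52053021 to 52165252), a ligand of the synaptic proteins LRRTM4 and GPR158, was read at 35.3, 44.2, 44.9 and 31.3 CPM in dKO-E, at 32.7, 34.5, 64.8 and 77.8 CPM in dKO-N and at 20.8, 27.7, 12.1 and 22.7 CPM in controls. All knockout libraries exceeded all controls, and dKO-N 3 and dKO-N 4 stood above the rest. Gpc4 rose 1.92-fold in dKO-E (log2FC 0.94 ± 0.28, adjusted p = 0.0275) and 2.75-fold in dKO-N (log2FC 1.46 ± 0.28, adjusted p = 0.00258). The dKO-E call was lost without any 1 of control 1 or 4 or dKO-E 2 or 3 (adjusted p 0.0503 to 0.0791) and without control 1 and control 3 together (0.64, adjusted p = 0.207). The dKO-N call held without these controls (1.16, adjusted p = 0.0253) and without dKO-N 4 (1.06, adjusted p = 0.00489). Gpc1 had log2 fold changes of 0.02 ± 0.12 in dKO-E and 0.14 ± 0.13 in dKO-N, and Gpc2 had 1, 0 and 1 counts in all dKO-E, dKO-N and control libraries.

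**Figure D2:**
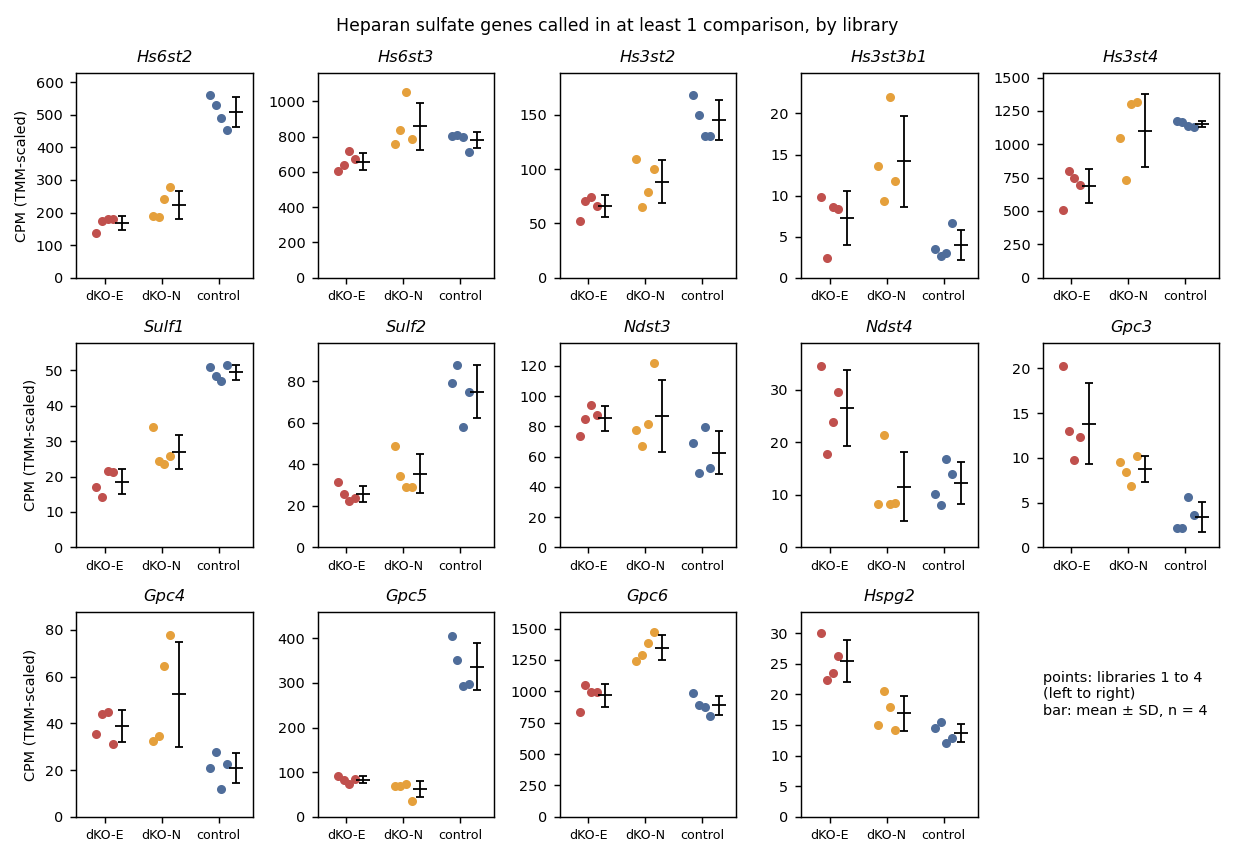
TMM-scaled CPM (y axis, from 0) in each of the 12 libraries for the 14 genes called in at least 1 comparison, with dKO-E, dKO-N and control from left to right, libraries 1 to 4 as points and the mean ± SD (n = 4) as a bar. All dKO-E and dKO-N points lie below the controls for Hs6st2, Hs3st2, Sulf1, Sulf2 and Gpc5 and above them for Gpc3 and Gpc4. Gpc6 and Hs3st3b1 separate only the dKO-N points, and Ndst4, Hs3st4 and Hspg2 only the dKO-E points. Hs3st3b1 is among the 14 only through its dKO-N value, given as a description.

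Promoters are shown for genes past the threshold in both comparisons whose 250 bases before the start in RefSeq's table (GRCm38.p6) hold no annotated exon. Gpc5 enters this set only through its dKO-N value, which is given as a description with no test. The promoters are those of Gpc3, which rose, and of Gpc5 and Sulf2, which were lower. They are written 5′ to 3′ on the gene's strand, at chrX:52613975-52614224 (minus strand), chr14:115091965-115092214 (plus strand) and chr2:166155684-166155933 (minus strand). Capitals mark matches to GGGCGG, the GC box motif, read on either strand (CCGCCC on the other), and to TATAAA, the TATA box motif, read on either strand (TTTATA on the other). Whether any match works as a promoter element was not tested.
Gpc3: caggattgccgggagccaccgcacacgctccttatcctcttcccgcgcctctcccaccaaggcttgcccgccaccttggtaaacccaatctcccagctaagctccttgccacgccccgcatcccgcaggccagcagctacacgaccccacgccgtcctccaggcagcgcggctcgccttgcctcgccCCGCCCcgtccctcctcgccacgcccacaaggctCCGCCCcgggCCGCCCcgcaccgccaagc
Gpc5: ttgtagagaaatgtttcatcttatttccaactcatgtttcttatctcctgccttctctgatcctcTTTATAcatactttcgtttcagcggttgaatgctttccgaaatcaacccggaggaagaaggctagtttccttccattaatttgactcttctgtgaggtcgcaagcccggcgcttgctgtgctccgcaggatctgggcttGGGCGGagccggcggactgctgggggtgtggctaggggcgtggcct
Sulf2: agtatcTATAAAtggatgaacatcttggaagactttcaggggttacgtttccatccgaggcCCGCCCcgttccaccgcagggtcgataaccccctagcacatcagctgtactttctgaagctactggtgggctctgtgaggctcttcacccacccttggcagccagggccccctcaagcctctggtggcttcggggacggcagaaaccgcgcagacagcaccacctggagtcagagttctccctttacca
The Gpc3 window held 3 GC box matches, no TATAAA match, 25 CpG dinucleotides and 71.6% G and C. The Gpc5 window held 1 GC box match and 1 TATAAA match with 12 CpG and 51.2% G and C. The Sulf2 window held 1 match of each with 10 CpG and 57.2% G and C. Both TATAAA matches lie in the 5′ part of their windows, away from the start of the gene. Over 32851 windows of the same length, 32.7% held a GC box match, 12.4% held a TATAAA match, and the medians were 6 CpG and 52.4% G and C. RefSeq's table matched 26 of the 34 genes, with 31 windows, of which 21 held a GC box match, and their median was 19 CpG. Windows of genes called in both knockouts that overlap an exon are not shown. They are another window of Sulf2 (21 CpG, 60.0% G and C) and those of Hs3st2 (17 CpG, 64.8%) and Gpc4 (18 CpG, 68.4%). Hs6st2 had windows with 26 CpG (72.0%) and 7 CpG (50.0%), and of all these only the latter held a TATAAA match. Genes that were lower thus had CpG-rich windows too, and no link between windows and changes was tested. CAGATG, an E-box bound by neuronal bHLH factors, and the general E-box CANNTG were also searched on both strands: CAGATG was in 1 of the 31 windows, that of Gpc2, against 14.4% of all windows. CANNTG was in 66.2% of all windows, with 2 matches in the Sulf2 window shown and 0 in those of Gpc3 and Gpc5.

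Syndecans, which carry their chains on membrane-spanning cores, were called in no comparison. Of the 3 tested, 0 passed edgeR's test in dKO-E, dKO-N or between them, and 0 did so at an unadjusted p of 0.05 or by DESeq2. Sdc3, the syndecan of neurons and their axons, averaged 189 ± 23.1 CPM in dKO-E, 181 ± 45.2 CPM in dKO-N and 186 ± 10.5 CPM in controls (SD, n = 4 each). Its log2 fold changes were 0.03 ± 0.14 in dKO-E and -0.09 ± 0.15 in dKO-N. Sdc1 had -0.16 ± 0.30 and 0.25 ± 0.31, and Sdc2 had 0.09 ± 0.23 and -0.09 ± 0.25, in dKO-E and dKO-N. Sdc4 was too low to test, with 25, 1 and 6 counts in dKO-E, dKO-N and control libraries, and 14 of the 25 came from dKO-E 1. With no filter on low counts Sdc4 passed in dKO-E against control (log2FC 2.15, adjusted p = 0.0344).

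Of the secreted core proteins, Hspg2 rose in dKO-E. Hspg2 (chromosome 4, 137468769 to 137570630) encodes perlecan, a large proteoglycan of basement membranes, and was read at 30.04, 22.3, 23.4 and 26.3 CPM in dKO-E, at 14.97, 20.5, 17.9 and 14.1 CPM in dKO-N and at 14.5, 15.4, 12.1 and 12.9 CPM in controls. All dKO-E libraries lay above all dKO-N and control libraries, and dKO-N overlapped controls. Hspg2 rose 1.83-fold in dKO-E (log2FC 0.87 ± 0.19, adjusted p = 0.000924) and was at 0.25 ± 0.23 in dKO-N (adjusted p = 0.579). Agrn, which encodes agrin, the organiser of the neuromuscular synapse, had log2 fold changes of -0.02 ± 0.10 in dKO-E and -0.23 ± 0.10 in dKO-N (adjusted p = 0.912 and 0.174).

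Markers of other cell types stood apart in 1 dKO-E library. Meningeal markers (9 genes, none with enough counts to test) summed to 5.03 to 73.2 CPM in dKO-E, 4.08 to 12.6 CPM in dKO-N and 4.32 to 7.23 CPM in controls, and the highest sum was in dKO-E 1. Among the 4 dKO-E libraries, dKO-E 1 also had the most of several other marker sums: 306 CPM for astrocytes (222 to 252 CPM in the other 3), 389 CPM for interneurons (264 to 315 CPM), 118 CPM for thalamus and hypothalamus (72.7 to 82.25 CPM) and 4.57 CPM for choroid plexus (0.405 to 2.24 CPM). Of the 30 genes tested, dKO-E 1 was the highest of dKO-E for 10, among them Hspg2, Gpc3 and Ndst4, and the lowest for 11, among them Hs6st2, Hs3st2 and Hs3st4. Without dKO-E 1, Hspg2 had a log2 fold change of 0.80 (adjusted p = 0.00521), Gpc3 had 1.77 (adjusted p = 0.000218), Hs3st4 had -0.62 (adjusted p = 0.00234) and Hs6st2 had -1.52 (adjusted p = 8.97e-13) against control. Of the markers of endothelium and mural cells, 8 of 10 were tested; Rgs5 was lower and none higher in dKO-E (none in either direction without control 1 and control 3), and the list summed to 77.0 to 108 CPM in dKO-E, 78.9 to 107 CPM in dKO-N and 111 to 121 CPM in controls.

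Further marker sums separated dKO-E from controls. They were higher for microglia (16.8 to 24.2 CPM in dKO-E, 12.4 to 21.03 CPM in dKO-N and 9.18 to 13.4 CPM in controls) and for thalamus and hypothalamus (72.7 to 118 CPM, 51.7 to 80.8 CPM and 52.7 to 56.5 CPM in the same groups). Of 2 microglia markers tested, Csf1r alone was called in dKO-E (adjusted p = 0.00793, and 0.161 without control 1 and control 3). It averaged 9.27 CPM in dKO-E and 3.58 CPM in controls, and the groups overlapped. Of 3 thalamus and hypothalamus markers tested, Lef1 alone was called in dKO-E (adjusted p = 3.41e-08), and 2 were without control 1 and control 3. Lef1 averaged 32.5 CPM in dKO-E and 9.85 CPM in controls. Sums were lower for the oligodendrocyte lineage (81.8 to 94.7 CPM in dKO-E, 68.5 to 96.6 CPM in dKO-N and 98.5 to 115 CPM in controls) and for Cajal-Retzius cells (240 to 359 CPM, 361 to 472 CPM and 395 to 465 CPM in the same groups). Of 4 Cajal-Retzius markers tested, Reln was lower in dKO-E (-0.59 ± 0.10, adjusted p = 3.36e-05). With averages of 267 CPM in dKO-E and 400 CPM in controls, Reln made up most of this sum. Ebf3 went the other way (0.93 ± 0.26, adjusted p = 0.0086, and 0.0627 without control 1 and control 3). Of 6 oligodendrocyte lineage markers tested, Pdgfra was called, and it was lower.

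Cell-type markers of the excitatory lineage also differed between groups. Markers of cortical excitatory neurons (10 genes) summed to 1714 to 2224 CPM in dKO-E and 2461 to 3235 CPM in dKO-N. In controls they summed to 3516 to 3932 CPM, with no overlap between groups. Of these markers, 1 was higher and 5 lower in dKO-E, and 1 was higher and 3 lower in dKO-N. Without control 1 and control 3, 0 were higher and 1 was lower in dKO-N. That 1 was Neurod6, the gene for which the driver of dKO-N is named (log2FC -1.23, adjusted p = 1.15e-07). With all libraries Neurod6 was also lower in dKO-E (log2FC -0.98, adjusted p = 2.14e-09). The part of the Cre allele in its dKO-N value was not tested. Radial glia markers summed to 418 to 509 CPM in dKO-E, 475 to 532 CPM in dKO-N and 311 to 385 CPM in controls, with 3 of 7 tested higher in dKO-E and 4 of 7 in dKO-N (1 and 3 without control 1 and control 3); Sox2 was listed at 0 in all libraries. Intermediate progenitor markers summed to 75.5 to 94.2 CPM in dKO-E, 96.7 to 113 CPM in dKO-N and 40.3 to 60.4 CPM in controls, with 3 of 5 tested higher in each (3 in dKO-E and 2 in dKO-N without those controls). Markers of cycling cells summed to 121 to 148 CPM in dKO-E, 116 to 237 CPM in dKO-N and 101 to 171 CPM in controls, highest in dKO-N 4. That library was also the highest of all 12 for Ndst3, Hs3st4, Hs3st5, Gpc4 and Gpc6 and the lowest for Gpc1, Gpc5, Sdc3 and Agrn; without it Gpc6 had a log2 fold change of 0.55 in dKO-N (adjusted p = 8.5e-06). The part of these cell types in the changes of heparan sulfate genes was not tested.

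Between the knockouts, where the driver and the time of deletion change together, dKO-E had less Hs6st2, Hs6st3, Hs3st4 and Gpc6 and more Ndst4 than dKO-N. These 5 of 30 genes are 16.7%, against 6.84% of all genes; 1 was higher and 4 lower, against 3.11% and 3.73% of all genes. Gpc6 was 1.39-fold lower in dKO-E (log2FC -0.48 ± 0.09, adjusted p = 0.00129), with no overlap, and held with each library left out. Hs6st3 was 1.30-fold lower in dKO-E (-0.38 ± 0.10, adjusted p = 0.0135), also without overlap, and Hs6st2 was 1.36-fold lower (-0.44 ± 0.12, adjusted p = 0.0183). Hs3st4 was 1.60-fold lower in dKO-E (-0.68 ± 0.17, adjusted p = 0.0295) and Ndst4 2.31-fold higher (1.21 ± 0.29, adjusted p = 0.01), and for both the groups overlapped through dKO-N 2. For Hspg2, the log2 fold change of dKO-E against dKO-N was 0.63 ± 0.21 (adjusted p = 0.0617). For Gpc5 it was 0.57 ± 0.20 and for Hs3st3b1 -0.91 ± 0.36. These 2 values use the known dKO-N levels and are given as a description with no test.

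These differences between knockouts rested more on single libraries than those against control. Hs6st3 lost its call without dKO-N 3 (adjusted p = 0.0927) and Ndst4 without dKO-N 4 (log2FC 0.91, adjusted p = 0.119), while without dKO-N 2 the Ndst4 difference was 1.62 (adjusted p = 0.000641). Hs6st2 lost its call without dKO-N 3, dKO-N 4 or dKO-E 1 (adjusted p 0.0542 to 0.174). Hs3st4 lost its call without any 1 of control 1, dKO-N 1, 3 or 4, or dKO-E 3 or 4 (adjusted p 0.0503 to 0.173), and without control 1 and control 3 together (adjusted p = 0.0742). Without dKO-E 3 and dKO-E 4, the libraries with Y-linked counts, Gpc6 and Hs6st3 passed (adjusted p = 0.0248 and 0.0498) and the other 3 genes did not.

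**Figure D3:**
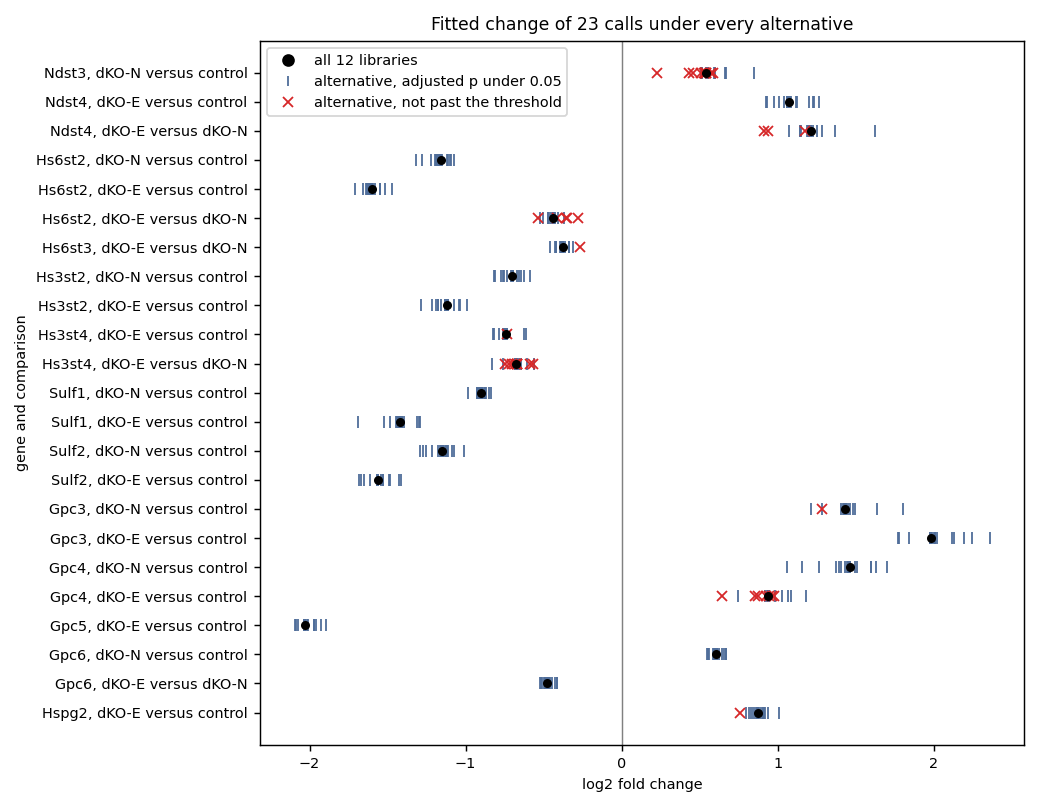
Log2 fold change (x axis) of 23 gene and comparison pairs past the threshold (y axis), as black points for all 12 libraries, blue ticks for alternatives in which the adjusted p stayed under 0.05 and red crosses for those in which it did not. Hs6st2, Hs3st2, Sulf1 and Sulf2 against control show no red cross, no point or mark crosses 0, and Ndst3, Gpc4 in dKO-E and the differences between knockouts carry most of the crosses.

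Of these 23 calls, 16 held with each library left out in turn, 20 held without control 1 and control 3, and 14 held under every alternative in which they were tested. After thinning, 25 of the 30 genes had enough counts to be tested, and Gpc3 was not among them. The 14 are Ndst4 and, over the alternatives in which it was tested, Gpc3 in dKO-E, Hs6st2, Hs3st2, Sulf1 and Sulf2 in each knockout, Gpc5 in dKO-E, Gpc4 in dKO-N, and Gpc6 in dKO-N against both other groups.

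Several of the genes lie on the same chromosome, 107.2 to 2481.1 kb apart in the pairs named here. Such neighbours did not always move the same way. On chromosome X, Hs6st2 and Gpc4 lie 371.2 kb apart and Gpc4 and Gpc3 lie 107.2 kb apart; Hs6st2 fell in both knockouts, while Gpc4 and Gpc3 rose. On chromosome 14, Gpc5 and Gpc6 lie 400.1 kb apart; in dKO-E Gpc5 fell and Gpc6 was not called. Ndst3 and Ndst4 lie 1713.2 kb apart on chromosome 3. On chromosome 7, Hs3st2 and Hs3st4 lie 2481.1 kb apart, and both fell in dKO-E, while in dKO-N Hs3st2 fell and Hs3st4 was not called. Without the libraries with Y-linked counts, the log2 fold changes of the X-linked genes in dKO-E were -1.71 for Hs6st2 (adjusted p = 2.81e-10), 2.25 for Gpc3 (adjusted p = 5.54e-05) and 0.96 for Gpc4 (adjusted p = 0.114).

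In control cortex the level per kb of exon was highest for Hs6st3 (457 CPM per kb), Hs3st4 (361), Gpc6 (138) and Ext1 (107). Scaled to the length of the whole gene, it was highest for Agrn (6.69 CPM per kb), Sdc3 (5.52), Ext1 (3.08) and Hs3st4 (2.77). The order therefore depends on which length is used, and whether reads in introns were counted is not given.

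Genes around the pathway were read from 6 further lists, which were also chosen with earlier results known; over all genes, 20.2% were called in dKO-E and 11.3% in dKO-N. Of the 11 tested genes that build the linkage region or supply precursors, Papss1, a maker of the sulfate donor, and Pxylp1, which removes a phosphate from the linkage xylose, were higher in dKO-E and Xylt1, which starts the linkage, was lower; in dKO-N Xylt1 was lower and none higher. Xylt1 averaged 452 ± 61.2 CPM in dKO-E, 476 ± 47.6 CPM in dKO-N and 582 ± 41.2 CPM in controls (SD, n = 4 each), with log2 fold changes of -0.36 ± 0.10 in dKO-E (adjusted p = 0.00571) and -0.30 ± 0.10 in dKO-N (adjusted p = 0.0418). Its dKO-N call was lost without any 1 of control 1, 2 or 3, dKO-N 2 or 4, or dKO-E 2 or 4 (adjusted p 0.0547 to 0.15). Papss1 had 0.37 ± 0.12 (adjusted p = 0.0203, lost without control 2, control 3 or dKO-E 2 at 0.0537 to 0.0894), and Pxylp1 had 0.56 ± 0.20 (adjusted p = 0.0481, lost without control 1, 2 or 3 or dKO-E 1 or 3 at 0.0873 to 0.21). Without control 1 and control 3 together, Xylt1 passed in dKO-E (adjusted p = 0.0269) and not in dKO-N (0.105), and neither Papss1 (0.104) nor Pxylp1 (0.174) passed in dKO-E. Of 11 genes of heparan sulfate breakdown and release, 5 were tested and 0 were called by edgeR or DESeq2 in any comparison, with 1 at an unadjusted p of 0.05 in each.

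Chondroitin and dermatan sulfate are sister chains built on the same linkage. Of 12 synthesis genes tested, Ust was higher and Chsy3 and Csgalnact1 lower in dKO-E, and Chsy3 was lower in dKO-N, against 20.2% and 11.3% of all genes called; without control 1 and control 3, 1 was lower in dKO-E and none in dKO-N. Chsy3, a chondroitin polymerase subunit, had log2 fold changes of -0.67 ± 0.10 in dKO-E (adjusted p = 2.41e-06) and -0.42 ± 0.10 in dKO-N (adjusted p = 0.00382, and 0.161 without control 1 and control 3). Csgalnact1, which starts chondroitin chains, had -0.50 ± 0.13 in dKO-E (adjusted p = 0.00547, and 0.171 without control 1 and control 3). Ust, a 2-O-sulfotransferase of these chains, had 0.33 ± 0.11 in dKO-E (adjusted p = 0.0271, lost without control 1 or 3 or dKO-E 1, 3 or 4 at 0.0502 to 0.145, and 0.335 without control 1 and control 3).

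Among 9 chondroitin sulfate core proteins tested, 1 was higher and 4 lower in dKO-E, and 1 was higher and 3 lower in dKO-N. Of all genes, 10.1% were higher and 10.1% lower in dKO-E, and 5.04% higher and 6.29% lower in dKO-N. Without control 1 and control 3, 1 was higher and 3 lower in dKO-E and 1 higher and 1 lower in dKO-N, since Bcan (adjusted p = 0.16 in dKO-E and 0.199 in dKO-N) and, in dKO-N, Spock1 (0.106) did not pass. Spock3, a testican, rose in dKO-E (1.03 ± 0.14, adjusted p = 2.36e-06) and was higher than in dKO-N (0.81 ± 0.15, adjusted p = 0.00139). Cspg5, or neuroglycan C, fell in dKO-E (-0.68 ± 0.14, adjusted p = 0.000393) and in dKO-N (-0.67 ± 0.15, adjusted p = 0.00222, and 0.065 without dKO-N 4). Spock1 fell in dKO-E (-0.39 ± 0.10, adjusted p = 0.00289) and in dKO-N (-0.33 ± 0.10, adjusted p = 0.0209, lost without control 1, control 2 or dKO-N 2 at 0.0548 to 0.0927). Bcan, or brevican, fell in dKO-E (-0.42 ± 0.14, adjusted p = 0.0262, lost without control 1 or 4 or dKO-E 1, 3 or 4 at 0.0504 to 0.081) and in dKO-N (-0.46 ± 0.15, adjusted p = 0.0424, lost without any 1 control, dKO-N 3 or 4 or dKO-E 3 or 4 at 0.0519 to 0.305). Ptprz1, a receptor phosphatase of radial glia that carries chondroitin sulfate, rose in dKO-N (0.42 ± 0.10, adjusted p = 0.00317) and was lower in dKO-E when the knockouts were compared (-0.35 ± 0.10, adjusted p = 0.0291, lost without dKO-N 3 or 4 or dKO-E 1, 3 or 4 at 0.0619 to 0.213).

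Of 16 receptors and synaptic partners tested, Fgfr1 was higher and 4 genes were lower in dKO-E, and Fgfr1 was higher and 3 lower in dKO-N (none higher in either and 5 and 2 lower without control 1 and control 3), against the same shares of all genes. Ptprd fell in dKO-E (-0.55 ± 0.10, adjusted p = 4.81e-05), as did Flrt3 (-0.77 ± 0.24, adjusted p = 0.0181, lost without control 2 or dKO-E 1 at 0.0706 and 0.0764). Gpr158 fell in dKO-N (-0.67 ± 0.15, adjusted p = 0.00304, and 0.0789 without control 1 and control 3), as did Rtn4r (-0.63 ± 0.21, adjusted p = 0.0406, lost without control 2 or 4 or dKO-N 1 or 4 at 0.0855 to 0.198). Fgfr1, a growth factor receptor that needs heparan sulfate to signal, rose in dKO-E (0.62 ± 0.13, adjusted p = 0.000616) and dKO-N (0.54 ± 0.14, adjusted p = 0.0078, and 0.0554 without control 1), but without control 1 and control 3 it passed in neither (0.33, adjusted p = 0.155, and 0.24, adjusted p = 0.421). Lrrtm4, Ptprd and Unc5d had less RNA in dKO-E than in dKO-N (-0.35 ± 0.09, -0.33 ± 0.10 and -0.31 ± 0.10; adjusted p = 0.0105, 0.0328 and 0.0419); Lrrtm4 lost its call without dKO-E 3 (adjusted p = 0.0594), Ptprd without control 2, dKO-N 3 or 4 or dKO-E 1 or 4 (0.0501 to 0.137), and Unc5d without any 1 of control 2, 3 or 4, dKO-N 3 or 4 or the dKO-E libraries (0.0536 to 0.268), and without control 1 and control 3 together (0.067).

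Of 8 heparin-binding growth factors tested, 1 was higher and 2 lower in dKO-E, and 2 were higher and 1 lower in dKO-N, against 20.2% and 11.3% of all genes called in either direction. Ptn, or pleiotrophin, which binds both heparan and chondroitin sulfate, averaged 223 ± 12.9 CPM in dKO-E, 325 ± 56.9 CPM in dKO-N and 576 ± 33.0 CPM in controls (SD, n = 4 each). It fell in dKO-E (-1.37 ± 0.10, adjusted p = 2.64e-13) and in dKO-N (-0.81 ± 0.10, adjusted p = 1.15e-07), and differed between dKO-E and dKO-N (-0.55 ± 0.10, adjusted p = 0.000856). Fgf18, a ligand of fibroblast growth factor receptors, averaged 10.6 ± 2.38 CPM in dKO-E, 6.82 ± 3.29 CPM in dKO-N and 1.33 ± 0.55 CPM in controls and rose in both (2.93 ± 0.41, adjusted p = 1.02e-06, and 2.43 ± 0.46, adjusted p = 0.000225). Fgf10 rose in dKO-N (1.48 ± 0.33, adjusted p = 0.0017) and differed between dKO-E and dKO-N (-1.11 ± 0.32, adjusted p = 0.0303, lost without dKO-N 2, 3 or 4 or dKO-E 1 or 4 at 0.0556 to 0.0852). Fgf13, a non-secreted family member, fell in dKO-E (-0.38 ± 0.10, adjusted p = 0.00518, and 0.203 without control 1 and control 3).

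**Figure D4:**
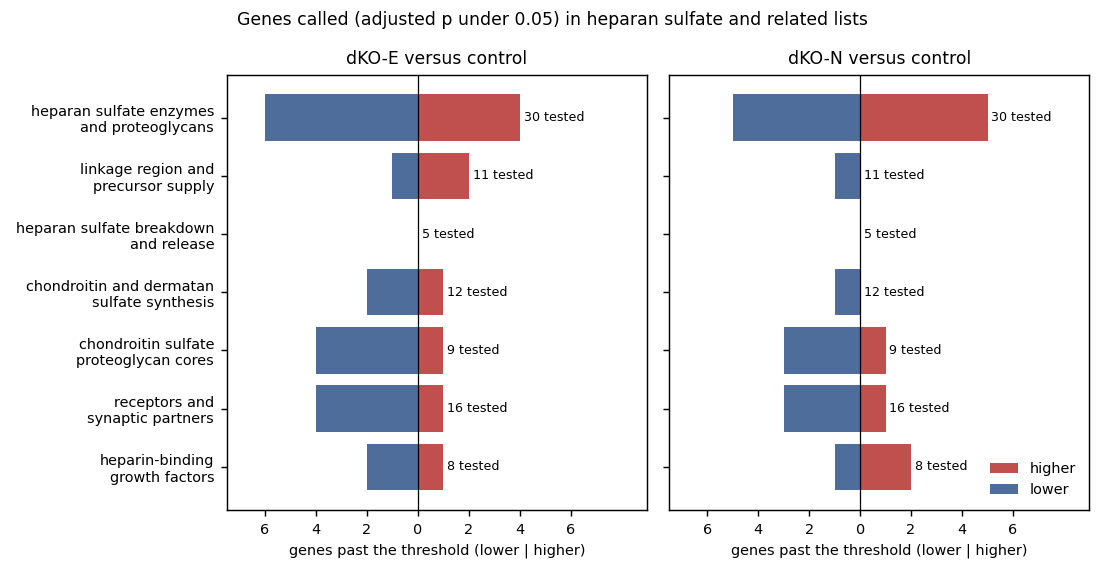
Number of genes past an adjusted p of 0.05 (x axis, lower to the left and higher to the right of 0) in the heparan sulfate genes and 6 related lists (y axis), with the number tested beside each bar, for dKO-E versus control on the left and dKO-N versus control on the right. The heparan sulfate genes have 4 higher and 6 lower of 30 in dKO-E and 5 higher and 5 lower of 30 in dKO-N, and the breakdown list has no bar.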

How the data were processed

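RNA depleted of ribosomal RNA was sequenced by ClickSeq, a library method that joins adapters to cDNA by click chemistry, per the labels' protocols. The authors deposited raw counts per gene in whole numbers, 1 file per library, with no normalization. The tools named in the submitters' processing notes are STAR, UMI-tools and HTSeq, and the build is mm10; versions, annotation, strand and the treatment of introns were not given in the sources used. Of the deposited counts, 85.2% to 88.9% fell in genes; reads with no feature (6.65% to 8.94%), with several features (2.0% to 2.2%) or with several places of origin (2.3% to 4.16%) stayed out of library sizes and tests. Positions and names came from GENCODE M21 (mm10), which matched 51719 of 51912 identifiers without their version (99.6%), and 27 of the 34 with it.

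After filterByExpr (minimum count 10; 11076 genes and 99% of counts kept) and TMM scaling, edgeR's robust quasi-likelihood fit (glmQLFit, then glmQLFTest) was run once on the 12 libraries with group as the term, with 9 residual degrees of freedom and a common biological coefficient of variation of 10.6%. P-values were adjusted by Benjamini-Hochberg over all genes tested, and 0.05 was the threshold. Within groups, every pair of libraries differed by more than sampling noise (chi-square/df 1.56 to 5.45). Versions were edgeR 4.0.16, DESeq2 1.42.0 and limma 3.58.1 under R 4.3.3, and Python 3.11.15, pandas 2.3.3 and matplotlib 3.10.9, and the fit was tested on simulated data. Replicate numbers did not pair the samples (same-number correlations -0.12 to 0.01), so no block was used.

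The genes, the related lists, the marker lists and the alternatives were chosen with earlier results of these data known. Genes called in at least 1 comparison are given by library, and of the related lists up to 4 called genes per comparison with the largest change are named, except 1 that is not reported here. Alternatives were other scalings (DESeq2 size factors, library totals), no filter, DESeq2's test, a replicate block, each library left out, control 1 and control 3 left out, dKO-E 3 and dKO-E 4 left out, thinning to the lowest total of 722080 counts, and fits of the 2 groups compared.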

Additional observations from a re-analysis of the deposited data

Results flagged for a closer look

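In 102 groups of 4 libraries (34 genes in 3 groups), 13 held a library whose gap to its nearest neighbour exceeded Dixon's 95% critical value as a share of the group's range; chance gives about 1 in 20. Among genes with calls, Ndst4 was at 21.4 CPM in dKO-N 2 (23 counts) and between 8.16 and 8.41 CPM in dKO-N 1, 3 and 4 (6, 6 and 28 counts). Gpc5 was at 35.1 CPM in dKO-N 4 and at 68.1 to 73.1 CPM in the others. Hs6st2 was at 136 CPM in dKO-E 1 and at 174 to 179 CPM in the others. Hs6st3 was at 713 CPM in control 4 and at 797 to 811 CPM in the others.

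Among genes without calls, Extl3 was at 66.6 CPM in control 2 (51.7 to 52.7 CPM in the others), Ndst2 at 3.61 CPM in dKO-N 4 (2.72 to 2.80), Hs2st1 at 144 CPM in dKO-E 2 (167 to 170) and Hs6st1 at 79.95 CPM in dKO-N 3 (55.9 to 59.9). The Ndst2 flag rests on 2, 3, 2 and 12 counts in dKO-N 1 to 4, and the remaining flags rest on few counts too. Hs3st3a1 was at 2.66 CPM in control 2 (5 counts; 1.03 to 1.30 CPM in the others). Gpc2 was at 0.405 CPM in dKO-E 2 and at 0.353 CPM in control 1, 1 count each, with 0 in the other libraries of those groups. Sdc4 was at 9.14 CPM in dKO-E 1 (14 counts; 1.17 to 2.24 CPM in the others) and at 0.932 CPM in dKO-N 2 (1 count; 0 in the others).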

How the results depend on the processing

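No called result changed direction under any alternative; over the heparan sulfate genes, comparisons and alternatives, 40 calls were lost and 30 values of the tested genes passed that had not; Sdc4, tested only with no filter, passed there in dKO-E against control and against dKO-N (log2FC 2.15 and 3.77, adjusted p = 0.0344 and 0.0139). With each library left out, 9 to 12 of 30 heparan sulfate genes were called in dKO-E against control and 8 to 11 in dKO-N. Of all 11286 to 11347 genes tested in those fits, 1699 to 2753 were called in dKO-E and 972 to 1298 in dKO-N. The dKO-N range counts Gpc5 and Hs3st3b1, given as a description, and nothing is read from it. Without control 1 and control 3, 1215 genes of the whole table were called in dKO-E and 756 in dKO-N; without dKO-E 3 and dKO-E 4, 1225 were called in dKO-E. After thinning to the lowest total, 1253 were called in dKO-E and 767 in dKO-N. Between the knockouts, the heparan sulfate genes called numbered 2 to 7 with each library left out (2 without dKO-N 3 or dKO-N 4), 2 without dKO-E 3 and dKO-E 4, and 3 after thinning. Over all genes these counts were 300 to 1036 with each library left out (300 without dKO-N 4), 199 without dKO-E 3 and dKO-E 4, 326 after thinning and 488 in a fit of the 2 groups alone; the cause was not tested beyond the smaller number of libraries or counts.

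Library totals in place of TMM moved the median log2 fold change of all genes to 0.14 in dKO-E, 0.07 in dKO-N and 0.07 between them, and the share of calls that were higher to 73.9% (main 50%), 57.8% (44.5%) and 65.4% (45.5%). With the replicate number as a block, 10 heparan sulfate genes were called in dKO-E, 11 in dKO-N and 6 between them. Of all 11076 genes, 1974, 1065 and 500 were called in the same comparisons, though the numbers do not pair the samples. The SE was above 0.25 against control in both knockouts for Extl2, Ndst2, Ndst4, Hs3st3b1, Gpc3, Gpc4 and Sdc1 and in dKO-N for Sdc2. At this depth Extl1, Hs3st3a1, Gpc2 and Sdc4 had too few counts to be tested.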
